A study of Mus musculus with 8 samples.

Results

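The actin cytoskeleton and focal adhesion genes described here are 45 symbols, chosen by name, whose products build actin filaments, make them contract, or tie them to the membrane and to the matrix outside the cell. A member was kept where the array had a probe set annotated to exactly 1 symbol, and where it had several, the one brightest on average across the 8 arrays stood for it. This left 44 members of 18193 genes. S100a11 was dropped because its probe set carries several symbols. That mean level chose the probe sets and is given as a description only. The symbols were proposed with earlier results of these data in view, so the counts of members below describe them and are no independent support for a direction. The test on each member comes from the fit over all genes.

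RNA of 8 samples was hybridised to 8 arrays, 1 each. The cells were mouse embryonic stem (ES) cells, which can give rise to all tissues of the body. They were male, of the strain 129S4/Svjae, and grew with LIF, a cytokine that keeps them undifferentiated. The groups were 3 samples with a lentiviral hairpin (shRNA) against Jmjd2b, 2 with a hairpin against Jmjd2c and 3 control samples with a hairpin against GFP. All groups shared the lentivirus, the puromycin selection and the passages after it, so the controls carry a hairpin too. Both targets encode histone demethylases (current symbols Kdm4b for Jmjd2b and Kdm4c for Jmjd2c), and the study concerns their part in the identity of ES cells. The labels name 1 target per group and do not say how many hairpin sequences were used. Nothing in the labels says whether the replicates came from separate infections, so a p-value reflects only how far these particular samples vary, and that variation could be technical.

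As background, actin filaments grow from actin monomers and are bundled by crosslinkers such as alpha-actinin and filamin. Non-muscle myosin II slides them past each other, and tropomyosins and caldesmon bind along the filament and regulate that pull. At focal adhesions, integrins bind the matrix outside, talin and vinculin link them to actin inside, and LIM domain proteins such as zyxin gather there under tension. Many genes of this machinery are targets of serum response factor (SRF), which binds the CArG box in DNA together with actin-sensing cofactors of the MRTF family.

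Each value below is an intensity, the authors' linear brightness of 1 probe set on 1 array, and values of different probe sets cannot be set against each other as levels. Differences are differences in log2(intensity + 16), the knockdown minus the group it is set against, with a standard error (SE) or a 95% interval. A gene passed where its p-value, adjusted over all 18193 genes, was under 0.05, and "rose" and "fell" are used only of genes that passed. The number of arrays limits the precision, most of all for the Jmjd2c knockdown. Kdm4b had 50.3, 29.3 and 17.02 in the Jmjd2b knockdown, 245 and 285 in the Jmjd2c knockdown and 421, 339 and 643 in the control, and Kdm4c had 752, 800.0 and 650.5 in the Jmjd2b knockdown, 142 and 469 in the Jmjd2c knockdown and 1332, 1300.1 and 1210.0 in the control. All arrays of each knockdown thus lay below the controls for their own target, with differences of -3.34 ± 0.28 (SE) for Kdm4b in the Jmjd2b and -2.23 ± 0.36 for Kdm4c in the Jmjd2c knockdown, both passing. They also lay below the controls for the other target without passing, and the 2 Jmjd2c knockdown arrays kept 11.1% and 36.7% of the control mean of Kdm4c. The 10 markers of ES cells summed to 48506 to 51422.5 in the Jmjd2b knockdown, 53094 to 53137 in the Jmjd2c knockdown and 66513 to 68610.5 in the control, and none of them lay under an intensity of 16 in all arrays of a group. Of these 10, 8 fell in the Jmjd2b and 5 in the Jmjd2c knockdown. As a scale for the marker counts in this paragraph, 12.9% of the 18193 genes passed as lower with Jmjd2b knocked down and 11.6% as higher. With Jmjd2c knocked down, 5.28% passed as lower and 4.31% as higher. The 10 markers of fibroblasts, the usual feeder cells, summed to 386 to 408 in the Jmjd2b knockdown, 417 to 481 in the Jmjd2c knockdown and 643 to 706 in the control, with Postn under 16 in all 8 arrays. Their sum was lower in each knockdown than in the control, but the markers did not move together. In the Jmjd2b knockdown 1 rose and 2 fell, with a median difference of -0.08. In the Jmjd2c knockdown 0 rose and 2 fell, with a median difference of 0.01. Of the 8 smooth muscle markers, the sum was 6808 to 15527 in the Jmjd2b knockdown, 3922 to 4209.9 in the Jmjd2c knockdown and 1788 to 2328 in the control, and Myh11, a defining marker, lay under 16 in all 8 arrays. Of these 8, 4 rose and 1 fell in the Jmjd2b and 2 rose and 1 fell in the Jmjd2c knockdown. The 8 primitive endoderm markers summed to 349 to 420.3 in the Jmjd2b knockdown, 234 to 422 in the Jmjd2c knockdown and 270.3 to 289.9 in the control. Among them, 2 rose and 1 fell in the Jmjd2b and 1 rose and 1 fell in the Jmjd2c knockdown. In these bulk samples a change in the share of a cell type and a change of RNA per cell cannot be told apart, and the part of such markers in the results below was not tested.

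The arrays were put into 3 sets. The first was defined by its many values of exactly 1, and the other 2 by how often values were exactly equal between arrays. The 3 arrays of the first set, Jmjd2b knockdown array 2 and control arrays 1 and 2, each held 412 to 455 values of exactly 1, against 7 to 11 in the other arrays. Pairs of them had 0.412% to 0.428% of values equal, a share that counts values of exactly 1 held by both. The second held array 1 of the Jmjd2b knockdown and array 3 of the control, with 0.459% of values equal. The third held array 3 of the Jmjd2b knockdown beside all arrays of the Jmjd2c knockdown, with 0.599% to 0.621% equal. Pairs across these sets shared at most 0.0798%. The labels do not say what the sets are. No control lies in the third set, so no difference between the Jmjd2c knockdown and the control can be taken within a set.

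Because SRF and its CArG box are tied to this gene group, promoter windows of the members were searched. RefSeq promoters of build GRCm38.p6, from 250 bases before to 50 after a start site, were found for 39 of the 44 members, as 48 windows. The CArG box (SRF; a pair of C, then 6 A or T, then a pair of G) was searched on both strands. It occurred in 7 of the 48 member windows (14.6%) and in 1.63% of all 32851 promoter windows. The windows belonged to Vcl, Fhl2, Fhl1, Actg1, Myl6 and Lima1. The boxes themselves, read 5′ to 3′ on the strand of the gene, are the stretches that match this pattern in these 6 members, and their letters vary:
Fhl2, 31 bases before the start: CCTTATATGG
Fhl2, other start, 96 bases before it: CCAAAAAAGG
Vcl, 227 bases before the start: CCTTATAAGG
Fhl1, 102 bases before the start: CCTAAAATGG
Actg1, 90 bases before the start: CCATATATGG
Myl6, 50 bases before the start: CCTTATATGG
Lima1, 47 bases before the start: CCTTATAAGG

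The windows of 3 members are shown whole, with the box in capitals, for members with a CArG box that rose in the Jmjd2b knockdown:
Fhl2 (GRCm38.p6, chr1:43163912-43164211, minus strand): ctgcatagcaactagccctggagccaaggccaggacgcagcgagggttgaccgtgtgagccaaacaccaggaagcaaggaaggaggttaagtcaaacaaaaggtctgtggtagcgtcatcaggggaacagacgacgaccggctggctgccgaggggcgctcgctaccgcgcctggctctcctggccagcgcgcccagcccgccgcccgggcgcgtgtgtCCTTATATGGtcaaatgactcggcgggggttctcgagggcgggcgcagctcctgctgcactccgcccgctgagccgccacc
Vcl (GRCm38.p6, chr14:20929148-20929447, plus strand): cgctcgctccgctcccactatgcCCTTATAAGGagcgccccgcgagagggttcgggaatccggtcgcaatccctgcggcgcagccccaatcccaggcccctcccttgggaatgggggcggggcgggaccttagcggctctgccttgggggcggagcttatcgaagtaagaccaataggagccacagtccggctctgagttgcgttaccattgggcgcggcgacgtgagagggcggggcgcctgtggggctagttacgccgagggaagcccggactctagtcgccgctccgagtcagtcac
Actg1 (GRCm38.p6, chr11:120348446-120348745, minus strand): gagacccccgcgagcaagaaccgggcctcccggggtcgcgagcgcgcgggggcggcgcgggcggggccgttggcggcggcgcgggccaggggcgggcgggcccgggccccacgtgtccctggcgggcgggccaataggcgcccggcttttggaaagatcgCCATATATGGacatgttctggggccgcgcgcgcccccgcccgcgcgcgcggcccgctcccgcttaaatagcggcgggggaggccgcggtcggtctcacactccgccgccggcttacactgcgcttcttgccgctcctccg

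The 6 members with a box did not share a direction: Fhl2, Vcl and Actg1 rose in the Jmjd2b knockdown, while Fhl1, Myl6 and Lima1 did not pass (values below). The TEAD motif GGAATG was found in 22.9% of member windows and 14.7% of all windows. The AP-1 motif TGANTCA was in 16.7% of member windows and 7.81% of all, and the GC box GGGCGG in 68.8% of member windows and 35.7% of all. All were searched on both strands, and 1 window can hold several. A match is a description of the letters in these windows and not a bound site.

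Across the whole group, most members were higher in the Jmjd2b knockdown than in the control. Of 44 members, 29 rose, where 11.6% of all genes rose, and 4 fell, where 12.9% of all genes fell. The 33 that passed stand against 24.4% of all genes, and the other 11 did not pass. The median difference of the members was 0.47 (quartiles 0.08 and 1.17), against -0.03 for all genes (quartiles -0.25 and 0.20), and 15 of the members that passed differed by 1 or more on this scale. With the replicate numbers as a block, which were taken to pair the Jmjd2b knockdown and control arrays from small correlations of their deviations, 29 members rose and 2 fell. Of all genes, 11.5% rose and 12.3% fell there. With the 3 sets of arrays as a block, 25 rose and 0 fell (limma; 5 were lower at an unadjusted p under 0.05). In that fit 7.51% of all genes rose and 9% fell. Leaving out single arrays moved the falls: 0 without control array 3 or Jmjd2b knockdown array 2, 1 without Jmjd2b knockdown array 3, and 2 without Jmjd2b knockdown array 1, control array 1 or control array 2. Without these single arrays 7.11% to 10.9% of all genes fell.

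In the Jmjd2c knockdown fewer members passed. Of 44, 7 rose, where 4.31% of all genes rose, and 2 fell, where 5.28% of all genes fell, so that 9 (20.5%) passed against 9.59% of all genes. The share that rose was 15.9%, and the share that fell was 4.55%. The median was 0.20 (quartiles -0.01 and 0.54) against -0.02 for all genes. The 7 were Tpm4, Vcl, Zyx, Tes, Pdlim7, Fhl2 and S100a10, and the 2 were Anxa2 and Lmna. Each of them had also passed in the same direction in the Jmjd2b knockdown, a comparison with the same 3 control arrays. The share of all genes called in the Jmjd2c knockdown for which this held is not given here. The count depends on single arrays: 15 rose without Jmjd2c knockdown array 1, 3 without array 2, 4 without control array 1 and 2 without control array 3. The falls became 4 without Jmjd2c knockdown array 1 and 0 without control array 3. Of all genes, 1.98% rose without control array 1, and 1.22% rose and 1.36% fell without control array 3. With the 3 sets as a block 0 members rose and 0 fell (limma; 5 and 4 at an unadjusted p under 0.05), where 0.0275% of all genes rose and 0.022% fell. In this fit the difference from the control is reached only through the Jmjd2b knockdown arrays.

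**Figure D1:**
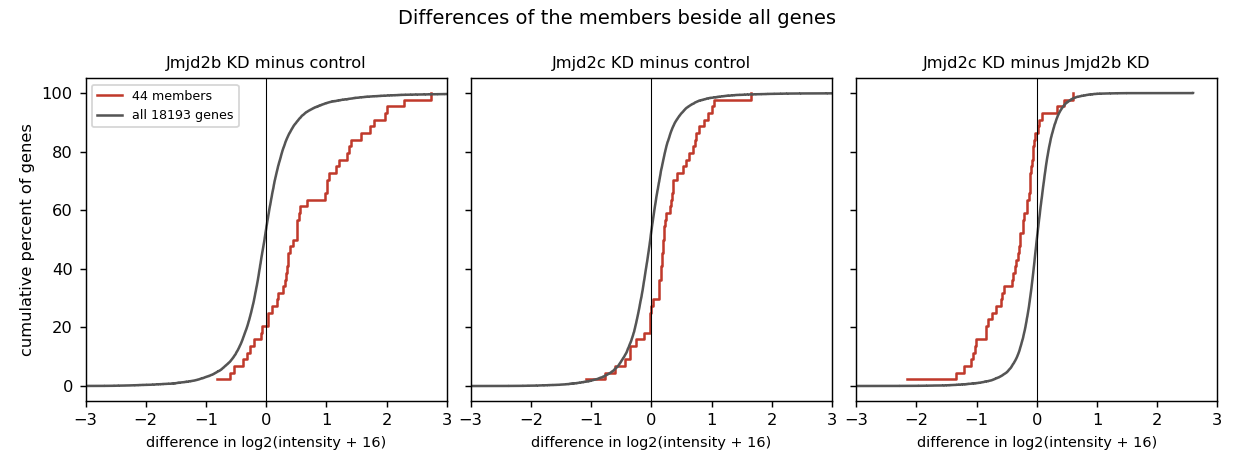
Cumulative percent of genes (vertical axis) by difference in log2(intensity + 16) (horizontal axis, drawn from -3 to 3) for the 44 members (red) and all 18193 genes (grey) in the 3 comparisons. The member curve lies right of that of all genes in both comparisons with the control, with medians of 0.47 and 0.20, and left of it for the Jmjd2c minus the Jmjd2b knockdown, with a median of -0.28.

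Separation of the arrays describes the same values without a model and is no second line of evidence. All Jmjd2b knockdown arrays lay above all controls for 31 members, where 21.0% of all genes did so, and below them for 5, where 23.8% did, so that 36 did not overlap, against 44.8% of all genes. Both Jmjd2c knockdown arrays lay above all controls for 23 members, against 17.4% of all genes, and below them for 6, against 21.2%, so that 29 did not overlap, against 38.6%. Per array, the median member stood 0.42, 0.48 and 0.46 above the control mean in the Jmjd2b knockdown and 0.18 and 0.25 above it in the Jmjd2c knockdown. Each control array, set against the other controls, had a median between -0.12 and 0.13. Within the first set of arrays the median difference between Jmjd2b knockdown and control was 0.48 and within the second 0.44. All 29 risen and all 4 fallen members were fully separated from the controls over all arrays. Their sign within a set was therefore fixed beforehand and adds nothing.

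**Figure D2:**
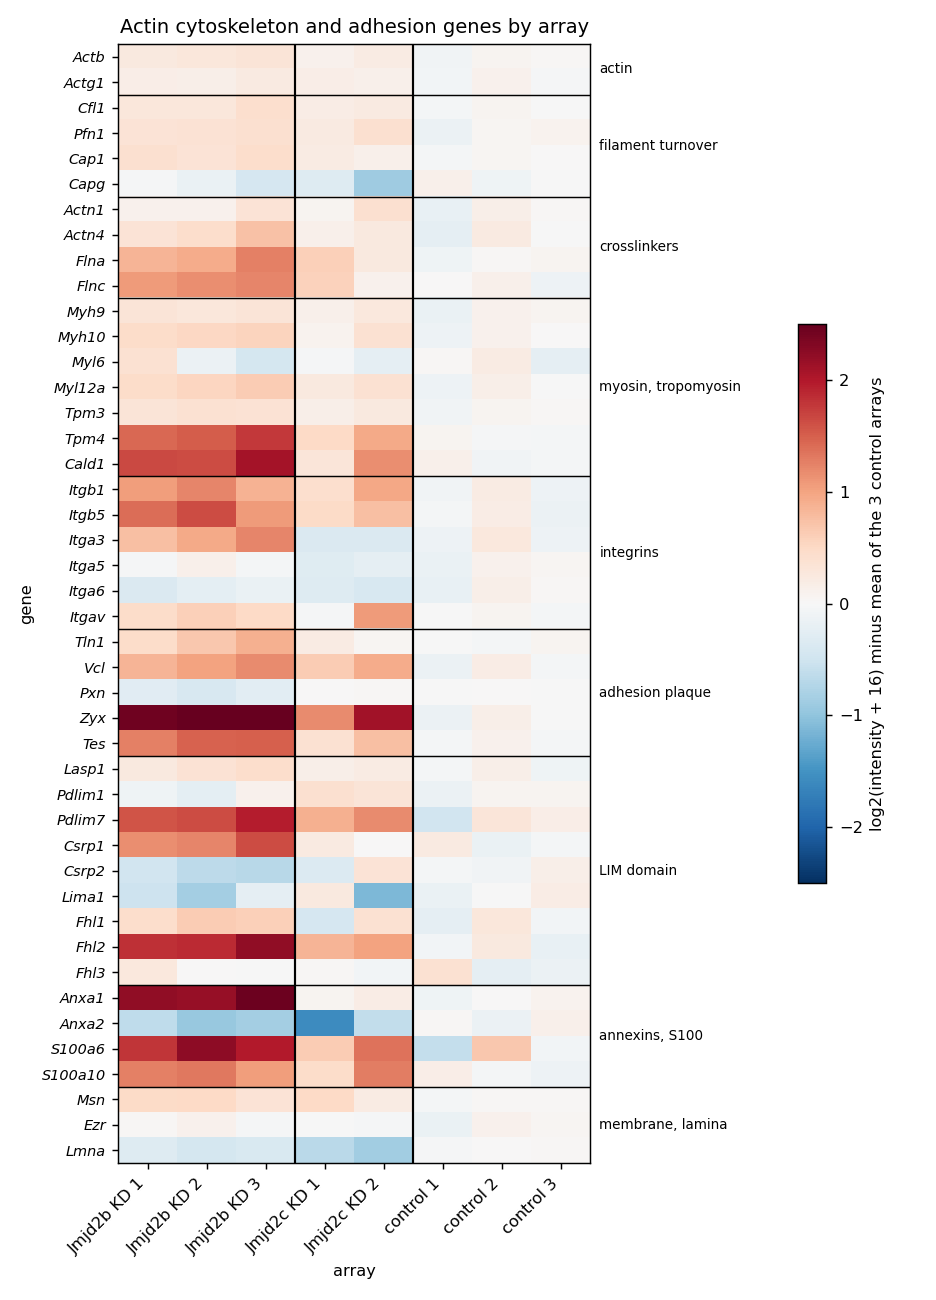
Heat map of the 44 members (rows, grouped by role) in the 8 arrays (columns, the 2 knockdowns left of the control). The colour is log2(intensity + 16) minus the mean of the 3 control arrays, limited to 2.5 either way. Zyx, Fhl2, Anxa1 and S100a6 are among the darkest red rows in the Jmjd2b knockdown arrays, and Anxa2 and Lmna are blue in all 5 knockdown arrays.

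Both actin genes rose by small amounts in the Jmjd2b knockdown. Actb, which encodes beta-actin, had 12658, 12992 and 13421 in the Jmjd2b knockdown, 11470.4 and 12335 in the Jmjd2c knockdown and 10082, 11231 and 10868 in the control. All 5 knockdown arrays lay above all 3 controls, and the difference was 0.28 ± 0.05 (SE; adjusted p = 0.00396) in the Jmjd2b knockdown. A further bright Actb probe set did not show it, at 0.01 ± 0.08 (SE; adjusted p = 0.95 over all probe sets). The array's own actin controls also moved with the group: the ratio of the 3′ to the 5′ actin probe set, which rises with RNA degradation, was 1.42, 1.36 and 1.31 in the Jmjd2b knockdown, 1.48 and 1.43 in the Jmjd2c knockdown and 1.63, 1.45 and 1.56 in the control. The same ratio of the Gapdh control probe sets did not separate the groups, at 0.987, 0.974 and 0.937 in the Jmjd2b knockdown, 0.987 and 0.943 in the Jmjd2c knockdown and 0.9804, 0.9697 and 0.936 in the control. The part of the actin ratio in the result was not tested. Actg1 encodes gamma-actin, nearly the same protein as beta-actin, and its probe set, of a type that can detect related transcripts, had 13138, 12942 and 13689 in the Jmjd2b knockdown, 13195 and 12844 in the Jmjd2c knockdown and 11131, 12587 and 11471 in the control. Its difference of 0.18 ± 0.05 (SE; adjusted p = 0.0316) in the Jmjd2b knockdown was lost with the replicate block, where the adjusted p was 0.0523.

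Cofilin, profilin and the cyclase-associated protein supply and recycle actin monomers, and their genes, 3 of the 4 members for filament turnover, rose in the Jmjd2b knockdown. Cfl1 had 9747, 9774 and 10716 in the Jmjd2b knockdown, 9138 and 9475 in the Jmjd2c knockdown and 7789, 8415 and 7979 in the control, a difference of 0.32 ± 0.05 (SE; adjusted p = 0.00233) in the Jmjd2b knockdown. Pfn1 had 4914, 4986 and 5121 in the Jmjd2b knockdown, 4546 and 5094 in the Jmjd2c knockdown and 3507, 4029.6 and 4135 in the control, a difference of 0.37 ± 0.08 (SE; adjusted p = 0.00703) in the Jmjd2b knockdown. Cap1 had 1797, 1731 and 1843 in the Jmjd2b knockdown, 1579 and 1494 in the Jmjd2c knockdown and 1315, 1405 and 1374 in the control, a difference of 0.39 ± 0.08 (SE; adjusted p = 0.0062) in the Jmjd2b knockdown. In these 3 genes every knockdown array of both kinds was above every control, and none of the 3 passed in the Jmjd2c knockdown (differences of 0.17 to 0.31). Capg, which caps the barbed end of filaments, went the other way in sign without passing, at -0.21 (95% interval -0.60 to 0.18) in the Jmjd2b and -0.61 (95% interval -1.05 to -0.18) in the Jmjd2c knockdown.

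Of the 4 crosslinkers 3 rose in the Jmjd2b knockdown, and the filamins changed most. Flna, filamin A, which joins filaments into a network and binds integrins, had 1593, 1671 and 2129 in the Jmjd2b knockdown, 1325 and 1039 in the Jmjd2c knockdown and 814, 889.6 and 922 in the control. The Jmjd2b knockdown arrays lay highest, those of the Jmjd2c knockdown between them and the controls, and the difference was 1.01 ± 0.13 (SE; adjusted p = 0.000666) in the Jmjd2b and 0.42 ± 0.15 (SE; adjusted p = 0.117) in the Jmjd2c knockdown. Flnc, the filamin best known from muscle, had 280.1, 301 and 315 in the Jmjd2b knockdown, 194 and 137 in the Jmjd2c knockdown and 126, 137 and 113 in the control. It rose by 1.15 ± 0.15 (SE; adjusted p = 0.000617) in the Jmjd2b knockdown, and for the Jmjd2c knockdown, whose second array lay at the highest control, the value was 0.34 ± 0.17 (SE; adjusted p = 0.253). A second Flnc probe set gave 1.67 ± 0.16 (SE) in the Jmjd2b and 0.81 ± 0.18 in the Jmjd2c knockdown and passed in both. Actn4, a non-muscle alpha-actinin that bundles filaments, had 2919.7, 3149 and 3849.7 in the Jmjd2b knockdown, 2529 and 2744 in the Jmjd2c knockdown and 1979.7, 2694 and 2305 in the control. It rose by 0.51 ± 0.13 (SE; adjusted p = 0.0175), while its relative Actn1 did not pass, at 0.19 (95% interval -0.07 to 0.45).

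Myosin II and tropomyosin genes rose together in the Jmjd2b knockdown: 6 of 7 passed. The heavy chains rose by small amounts. Myh9, heavy chain of myosin IIA, had 3050.1, 2958 and 3049 in the Jmjd2b knockdown, 2651 and 2931 in the Jmjd2c knockdown and 2154, 2638 and 2539 in the control, a difference of 0.31 ± 0.09 (SE; adjusted p = 0.03) in the Jmjd2b knockdown. Myh10, the heavy chain of myosin IIB, had 2270.3, 2345 and 2425 in the Jmjd2b knockdown, 1747 and 2141 in the Jmjd2c knockdown and 1504, 1759.9 and 1660.5 in the control, a difference of 0.51 ± 0.10 (SE; adjusted p = 0.00437) in the Jmjd2b knockdown. The regulatory light chain gene Myl12a had 7978, 8417 and 9075 in the Jmjd2b knockdown, 6913 and 7624 in the Jmjd2c knockdown and 5304, 6424 and 5802 in the control, a difference of 0.54 ± 0.08 (SE; adjusted p = 0.00114) in the Jmjd2b knockdown with no overlap of the groups. The essential light chain gene Myl6 did not pass, at -0.07 (95% interval -0.54 to 0.40). It was measured by 1 probe set, with a mean intensity of 119 in the Jmjd2b knockdown, 110 in the Jmjd2c knockdown and 123 in the control.

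Tropomyosin 4 and caldesmon, both of which lie along the filament, changed most in that set. Tpm4 had 2223, 2356 and 2829.5 in the Jmjd2b knockdown, 1166 and 1583 in the Jmjd2c knockdown and 860.3, 804 and 786 in the control. The groups stood in 3 separate steps, and Tpm4 rose by 1.57 ± 0.13 (SE; adjusted p = 7.68e-05) in the Jmjd2b and by 0.72 ± 0.15 (SE; adjusted p = 0.0163) in the Jmjd2c knockdown. Cald1 had 2569, 2528 and 3479 in the Jmjd2b knockdown, 996 and 1845 in the Jmjd2c knockdown and 892, 757 and 787 in the control. It rose by 1.78 ± 0.21 (SE; adjusted p = 0.000337) in the Jmjd2b knockdown, where its mean was 3.52 times that of the control, and 4 of its 5 probe sets passed. In the Jmjd2c knockdown 1 array stood near the controls and the other well above, at 0.73 ± 0.23 (SE; adjusted p = 0.0777). Tpm3, another tropomyosin of non-muscle cells, had 6269, 6512 and 6456 in the Jmjd2b knockdown, 5559.8 and 5953 in the Jmjd2c knockdown and 4678, 5282 and 5075 in the control. Its rise of 0.36 ± 0.06 (SE; adjusted p = 0.00263) in the Jmjd2b knockdown was small beside those of Tpm4 and Cald1. The call was lost without the probe sets that can detect several transcripts, where a dim one at -0.029 stands in, and the further bright probe sets of Tpm3, both of that type, passed.

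**Figure D3:**
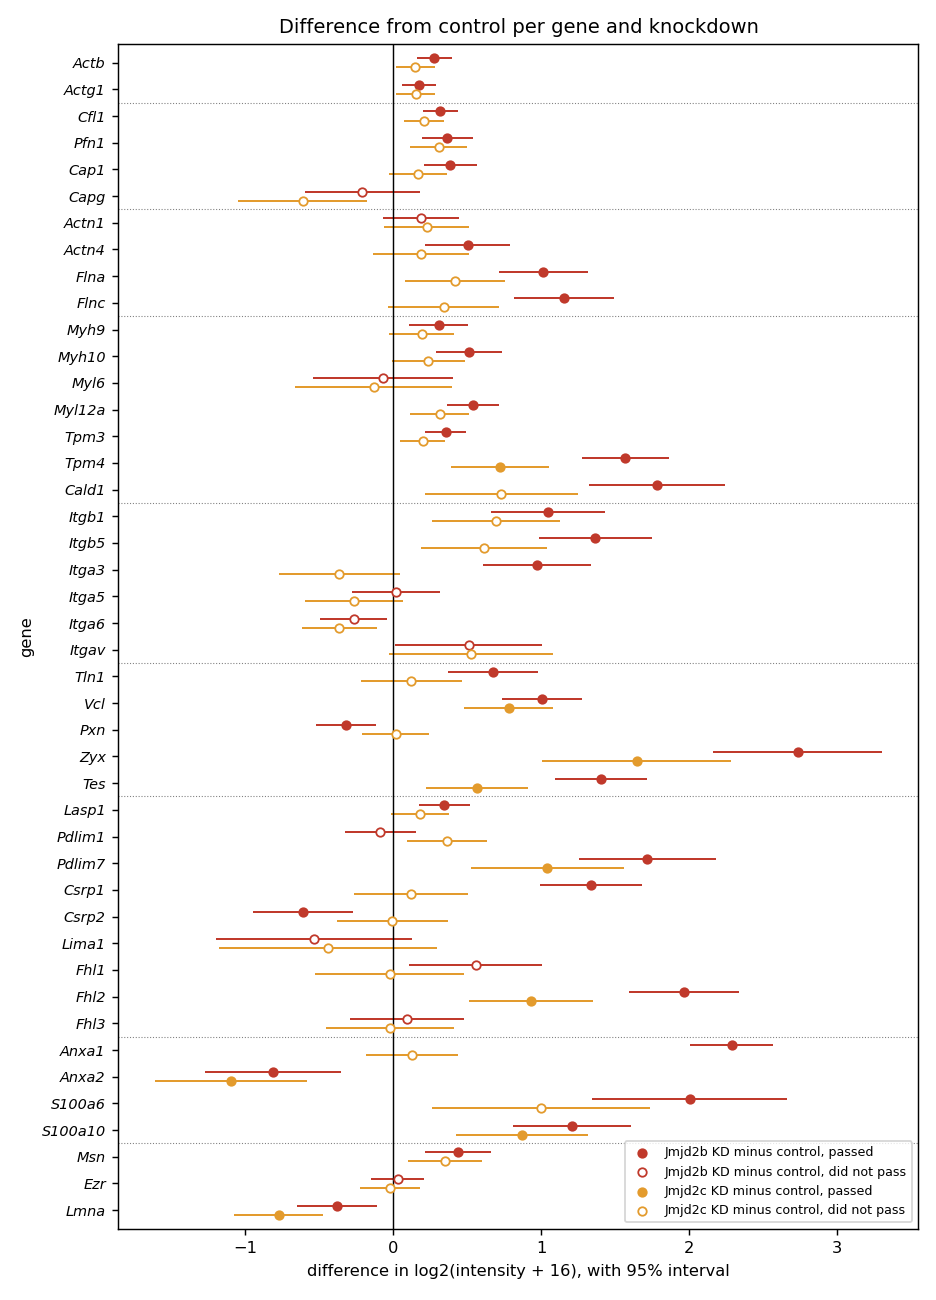
Difference from the control in log2(intensity + 16) for each member, with its 95% interval, in the Jmjd2b knockdown (red) and the Jmjd2c knockdown (orange). Filled points passed and open points did not. Zyx reached 2.74 in the Jmjd2b and 1.65 in the Jmjd2c knockdown, Anxa1 reached 2.29 in the Jmjd2b knockdown and 0.13 in the Jmjd2c knockdown, and dotted lines part the roles.

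Integrins are pairs of an alpha and a beta subunit, and the 2 beta subunits in the group rose while the alpha subunits varied, so that 3 of 6 rose in the Jmjd2b knockdown. Itgb1, the partner of many alpha subunits, had 487, 558 and 432 in the Jmjd2b knockdown, 311 and 462 in the Jmjd2c knockdown and 215, 267 and 208 in the control. All knockdown arrays exceeded all controls, with a difference of 1.05 ± 0.17 (SE; adjusted p = 0.00206) in the Jmjd2b and 0.69 ± 0.19 (SE; adjusted p = 0.0517) in the Jmjd2c knockdown. Itgb5, which pairs with the alpha V subunit, had 426, 508 and 338 in the Jmjd2b knockdown, 219 and 268 in the Jmjd2c knockdown and 146, 177 and 137 in the control, and differed by 1.37 ± 0.17 (SE; adjusted p = 0.0005) in the Jmjd2b and 0.62 ± 0.19 (SE; adjusted p = 0.0742) in the Jmjd2c knockdown. All 4 Itgb5 probe sets passed in the Jmjd2b knockdown, between 1.27 and 1.52.

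Itga3, an alpha subunit for laminin, had 296, 344 and 415 in the Jmjd2b knockdown, 128 and 129 in the Jmjd2c knockdown and 155, 205 and 153 in the control. The Jmjd2b knockdown arrays lay above and the Jmjd2c knockdown arrays below all controls: the differences were 0.97 ± 0.16 (SE; adjusted p = 0.00217) in the Jmjd2b and -0.36 ± 0.18 (SE; adjusted p = 0.266) in the Jmjd2c knockdown. The direct difference between the knockdowns, Jmjd2c minus Jmjd2b, was -1.34 ± 0.18 (SE; adjusted p = 0.0189). Itga6, the alpha 6 subunit and another laminin receptor, had 1737, 1889.5 and 1989.8 in the Jmjd2b knockdown, 1794 and 1700.0 in the Jmjd2c knockdown and 1984, 2508 and 2286 in the control and did not pass, at -0.27 (95% interval -0.49 to -0.04) in the Jmjd2b and -0.36 (95% interval -0.61 to -0.11) in the Jmjd2c knockdown. Its second bright probe set was at -0.14 ± 0.12 (SE; adjusted p = 0.455 over all probe sets) in the Jmjd2b knockdown, and passed as lower in the Jmjd2c knockdown, at -0.57 ± 0.13 (SE; adjusted p = 0.0278 over all probe sets). Itgav had 931, 1028 and 956 in the Jmjd2b knockdown, 666 and 1440 in the Jmjd2c knockdown and 671, 705 and 652 in the control, so that the second Jmjd2c knockdown array stood above every other array and the first within the controls. It did not pass, at 0.51 (95% interval 0.02 to 1.01) in the Jmjd2b and 0.53 (95% interval -0.03 to 1.08) in the Jmjd2c knockdown. A dimmer Itgav probe set, with a mean of 78.6, passed as lower in the Jmjd2b knockdown, at -0.55 ± 0.13 (SE; adjusted p = 0.0164 over all probe sets). In the Jmjd2c knockdown that probe set did not pass, at -0.16 ± 0.15 (SE). Itga5, of the fibronectin receptor, was dim, between 27.7 and 42.9 in all arrays, and did not pass.

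The plaque on the inner side of the adhesion held the largest rise of the group, and in the Jmjd2b knockdown 4 of its 5 members rose while 1 fell. Zyx, which encodes zyxin, had 542, 603 and 926 in the Jmjd2b knockdown, 219 and 429 in the Jmjd2c knockdown and 77.7, 98.5 and 86.7 in the control. The groups did not overlap. Zyx rose by 2.74 ± 0.26 (SE; adjusted p = 0.000122) in the Jmjd2b knockdown, 7.88 times the control mean, and by 1.65 ± 0.29 (SE; adjusted p = 0.00904) in the Jmjd2c knockdown, 3.697 times the control mean. Its second probe set gave 3.10 ± 0.26 (SE) in the Jmjd2b and 1.81 ± 0.29 in the Jmjd2c knockdown, and passed in both. Tes, which encodes testin, a partner of zyxin, had 556, 647 and 656 in the Jmjd2b knockdown, 295 and 389 in the Jmjd2c knockdown and 216, 241 and 215 in the control, and differed by 1.405 ± 0.14 (SE; adjusted p = 0.000156) in the Jmjd2b and 0.57 ± 0.15 (SE; adjusted p = 0.048) in the Jmjd2c knockdown. The call in the Jmjd2c knockdown is at the threshold, and 14 of 18 alternatives lost it. A second Tes probe set, with a mean of 379 beside 402, passed in the Jmjd2b knockdown at 0.90 ± 0.13 (SE). In the Jmjd2c knockdown it did not pass, at 0.16 ± 0.15 (SE; adjusted p = 0.601 over all probe sets).

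Vcl, which encodes vinculin, had 2896, 3226 and 3644 in the Jmjd2b knockdown, 2488 and 3071 in the Jmjd2c knockdown and 1453, 1825 and 1552 in the control. It rose in both knockdowns, by 1.01 ± 0.12 (SE; adjusted p = 0.00041) in the Jmjd2b and 0.78 ± 0.14 (SE; adjusted p = 0.00921) in the Jmjd2c knockdown, and the direct difference between them was -0.23 (95% interval -0.53 to 0.08). Tln1, which encodes talin and activates integrins, had 417, 485 and 571 in the Jmjd2b knockdown, 346 and 310.1 in the Jmjd2c knockdown and 296, 288 and 314 in the control. It rose by 0.68 ± 0.14 (SE; adjusted p = 0.00568) in the Jmjd2b knockdown, had 0.12 ± 0.15 (SE; adjusted p = 0.685) in the Jmjd2c knockdown, and a second bright probe set did not pass, at -0.17 ± 0.12 (SE). Pxn, the adaptor paxillin, had 783, 721 and 789.6 in the Jmjd2b knockdown, 969 and 971 in the Jmjd2c knockdown and 955, 959 and 955 in the control. It was the one plaque gene that fell in the Jmjd2b knockdown, by 0.32 ± 0.09 (SE; adjusted p = 0.0293), a call lost with the replicate block (adjusted p = 0.0511), and its Jmjd2c knockdown arrays lay just above the controls.

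The LIM domain is a pair of zinc fingers that binds other proteins. Zyxin, testin and paxillin, which also carry it, were counted with the plaque, and of the 9 members grouped here as other LIM domain adaptors 4 rose and 1 fell in the Jmjd2b knockdown. Fhl2, a LIM-only protein that also acts in the nucleus, had 136, 141 and 184 in the Jmjd2b knockdown, 61.7 and 70.9 in the Jmjd2c knockdown and 25.3, 35.3 and 21.6 in the control. Its control values are dim, the 3 groups did not overlap, and it rose by 1.97 ± 0.17 (SE; adjusted p = 8.15e-05) in the Jmjd2b and 0.93 ± 0.19 (SE; adjusted p = 0.0155) in the Jmjd2c knockdown. Its relative Fhl1 had 925, 1062 and 1038 in the Jmjd2b knockdown, 503 and 886 in the Jmjd2c knockdown and 577, 834 and 648 in the control and did not pass, at 0.56 (95% interval 0.11 to 1.01) in the Jmjd2b and -0.02 (95% interval -0.53 to 0.48) in the Jmjd2c knockdown. With the replicate block its Jmjd2b knockdown difference passed, with an adjusted p of 0.0183. Fhl3 lay under 10 in all 8 arrays, so that no change could be read from its probe set.

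Pdlim7, which encodes a PDZ and LIM protein of stress fibres, had 793, 825 and 1044 in the Jmjd2b knockdown, 490.5 and 606 in the Jmjd2c knockdown and 179, 322 and 290.3 in the control. It rose by 1.72 ± 0.21 (SE; adjusted p = 0.000409) in the Jmjd2b and 1.04 ± 0.23 (SE; adjusted p = 0.0226) in the Jmjd2c knockdown, and the groups stood apart. Pdlim1 had 1692, 1535 and 1976 in the Jmjd2b knockdown, 2423 and 2299 in the Jmjd2c knockdown and 1657, 1928 and 1922 in the control, so that the Jmjd2c knockdown was highest, and did not pass, at -0.09 (95% interval -0.33 to 0.16) in the Jmjd2b and 0.36 (95% interval 0.09 to 0.63) in the Jmjd2c knockdown. Lasp1, a LIM and SH3 protein of adhesions, had 5496, 5889.9 and 6253 in the Jmjd2b knockdown, 5123 and 5349 in the Jmjd2c knockdown and 4486, 5105 and 4285 in the control. Its difference in the Jmjd2b knockdown was 0.35 ± 0.08 (SE; adjusted p = 0.00951), and the 6 of its 9 probe sets with the highest means all passed, between 0.35 and 0.55.

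The cysteine-rich proteins Csrp1 and Csrp2 moved in opposite directions in the Jmjd2b knockdown. Csrp1 had 1291, 1347 and 1802 in the Jmjd2b knockdown, 670.0 and 575 in the Jmjd2c knockdown and 667, 506 and 546 in the control, a rise of 1.34 ± 0.15 (SE; adjusted p = 0.000332), while the Jmjd2c knockdown arrays overlapped the controls at 0.12 ± 0.17 (SE; adjusted p = 0.732). Csrp2 had 3109, 2769 and 2694 in the Jmjd2b knockdown, 3416 and 5511 in the Jmjd2c knockdown and 4183, 4104 and 4795 in the control. It fell in the Jmjd2b knockdown, with a difference of -0.61 ± 0.15 (SE; adjusted p = 0.0157). In the Jmjd2c knockdown 1 array was below and 1 above all controls, and the value was -0.003 ± 0.17 (SE; adjusted p = 0.993). Lima1, which encodes an actin bundler also called EPLIN, had 1316, 1029 and 1596 in the Jmjd2b knockdown, 2239 and 850.3 in the Jmjd2c knockdown and 1671, 1854 and 2141 in the control. Its Jmjd2b knockdown arrays lay below all controls without passing, at -0.53 (95% interval -1.19 to 0.13), and its 2 Jmjd2c knockdown arrays lay on either side of them.

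**Figure D4:**
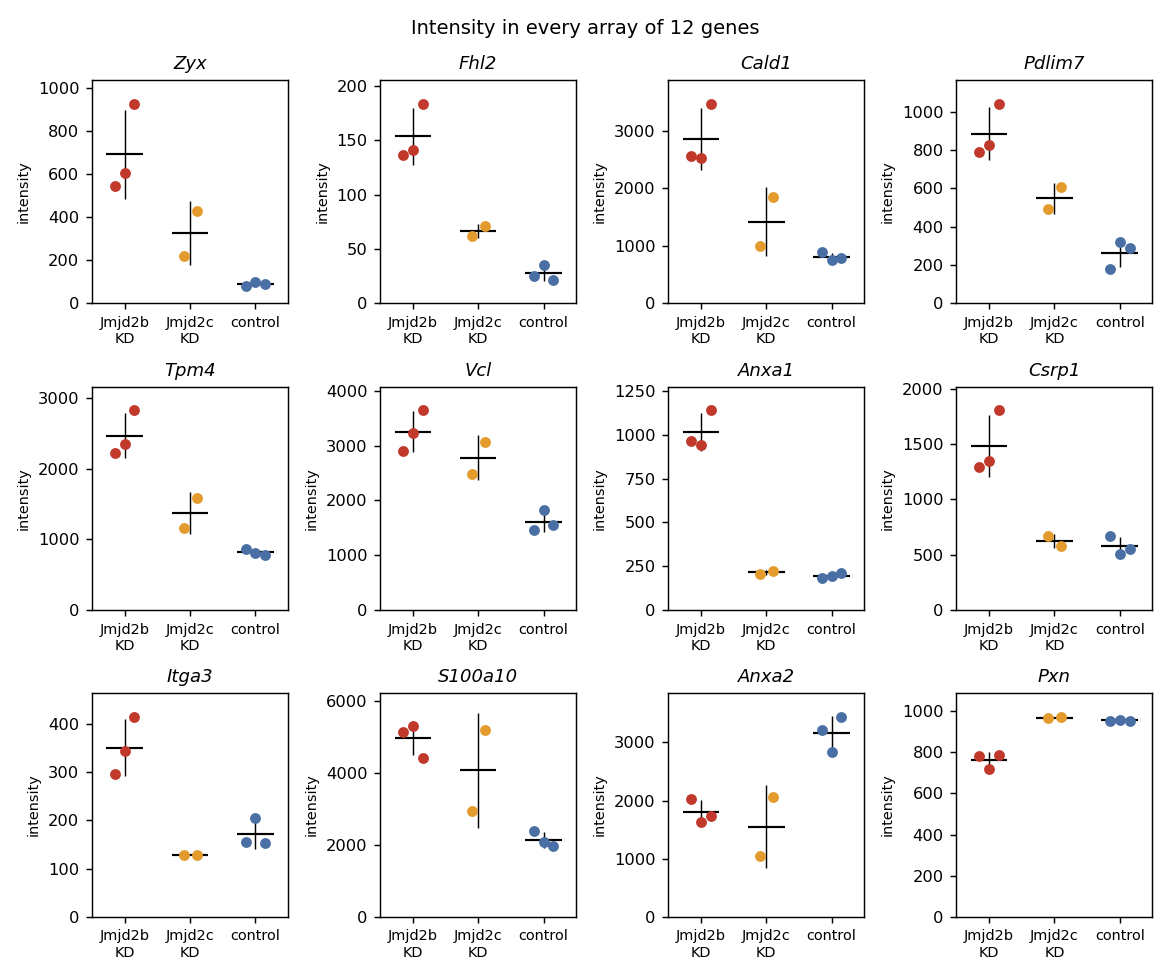
Intensity (vertical axis, linear, from 0) in every array for 12 members, with the 2 knockdowns left of the control. Points are arrays, horizontal bars are group means and vertical lines are 1 SD either way (n = 3, 2 and 3). Anxa1, Csrp1 and Itga3 are high in the Jmjd2b knockdown and near or below the controls in the Jmjd2c knockdown, while Zyx, Fhl2, Pdlim7 and Tpm4 stand in 3 steps and Anxa2 is lower in both knockdowns.

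Annexins and most S100 proteins bind calcium, and members of both families meet the actin cortex at the membrane. In the Jmjd2b knockdown 3 of the 4 members rose while 1 fell. Anxa1 had 968, 942 and 1140.4 in the Jmjd2b knockdown, 205 and 224 in the Jmjd2c knockdown and 181, 196 and 208 in the control. It rose by 2.29 ± 0.12 (SE; adjusted p = 1.55e-05) in the Jmjd2b knockdown, 5.21 times the control mean, and the Jmjd2c knockdown arrays overlapped the controls at 0.13 ± 0.14 (SE; adjusted p = 0.647). Anxa2 had 2028, 1628 and 1743 in the Jmjd2b knockdown, 1044 and 2057 in the Jmjd2c knockdown and 3207, 2842 and 3434 in the control. It fell in both, with differences of -0.81 ± 0.21 (SE; adjusted p = 0.0173) in the Jmjd2b and -1.095 ± 0.23 (SE; adjusted p = 0.018) in the Jmjd2c knockdown, and a second bright probe set gave -0.92 ± 0.20 (SE) in the Jmjd2b and -1.13 ± 0.23 in the Jmjd2c knockdown.

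S100a10 encodes the protein that forms a complex with annexin A2, and it moved opposite to Anxa2. S100a10 had 5133, 5304 and 4418 in the Jmjd2b knockdown, 2922 and 5195 in the Jmjd2c knockdown and 2382, 2062 and 1951 in the control. It rose by 1.21 ± 0.18 (SE; adjusted p = 0.00115) in the Jmjd2b and 0.87 ± 0.20 (SE; adjusted p = 0.0258) in the Jmjd2c knockdown, with the second Jmjd2c knockdown array at the level of the Jmjd2b knockdown. S100a6, a calcium-binding protein of dividing cells, had 1746, 2383 and 1994 in the Jmjd2b knockdown, 776 and 1288 in the Jmjd2c knockdown and 319, 792 and 470.4 in the control. The controls spread widely, it rose by 2.004 ± 0.29 (SE; adjusted p = 0.00111) in the Jmjd2b knockdown, and 1 Jmjd2c knockdown array lay within the controls, at 0.999 ± 0.33 (SE; adjusted p = 0.0889).

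Of the linkers of membrane and nucleus, Msn encodes moesin, which ties actin to the membrane, and had 1639.5, 1675 and 1487 in the Jmjd2b knockdown, 1657 and 1364 in the Jmjd2c knockdown and 1129, 1206 and 1192 in the control. It rose by 0.44 ± 0.10 (SE; adjusted p = 0.0103) in the Jmjd2b knockdown and had 0.35 ± 0.11 (SE; adjusted p = 0.0793) in the Jmjd2c knockdown, with no overlap with the controls in either. Its relative Ezr, ezrin, did not pass, at 0.03 (95% interval -0.15 to 0.21) in the Jmjd2b and -0.02 (95% interval -0.22 to 0.18) in the Jmjd2c knockdown. Lmna, which encodes the nuclear lamins A and C, had 222, 202 and 212 in the Jmjd2b knockdown, 171 and 146 in the Jmjd2c knockdown and 273, 285 and 286 in the control. It fell in both, with differences of -0.38 ± 0.12 (SE; adjusted p = 0.0446) in the Jmjd2b and -0.77 ± 0.13 (SE; adjusted p = 0.00921) in the Jmjd2c knockdown, and the call in the Jmjd2b knockdown was lost with the replicate block (adjusted p = 0.0675). A second bright Lmna probe set did not pass, at -0.23 ± 0.13 (SE) in the Jmjd2b and -0.02 ± 0.14 in the Jmjd2c knockdown, so the fall rests on the brightest probe set and, for the Jmjd2c knockdown, a dimmer one at -0.66 ± 0.16.

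Of the 33 members that passed in the Jmjd2b knockdown, 21 kept the call in each of the 19 alternatives that could be run for them. Those that lost it in at least 1 were Actb, Actg1, Actn4, Anxa2, Csrp2, Lasp1, Lmna, Msn, Myh9, Pfn1, Pxn and Tpm3. Of the 9 in the Jmjd2c knockdown, all lost it with the 3 sets of arrays as a block, and Vcl and Zyx lost it under that alternative only. Few genes of any kind passed there: 0.0275% of all genes rose and 0.022% fell. Of the 33 other probe sets above the median level that belong to members called in the Jmjd2b knockdown, 26 passed in the same direction and 1, of Tln1, had the opposite sign. For the members called in the Jmjd2c knockdown, 4 of 7 such probe sets passed in the same direction. For those called between the knockdowns, 1 of 2 did, and in both comparisons 0 had the opposite sign.

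The knockdowns were also set against each other. Jmjd2c minus Jmjd2b, 6 members were lower and 0 were higher (limma; 20 and 3 at an unadjusted p under 0.05), where 0.489% and 0.203% of all genes were lower and higher. The 6 were Anxa1 at -2.16 ± 0.14 (SE; adjusted p = 0.000271), Itga3, Csrp1 at -1.22 ± 0.17 (SE; adjusted p = 0.0212), Tes at -0.84 ± 0.15 (SE; adjusted p = 0.0495), Fhl2 at -1.03 ± 0.19 (SE; adjusted p = 0.0495) and Tpm4 at -0.85 ± 0.15 (SE; adjusted p = 0.0432). The median of the members was -0.28, against 0.00 for all genes, and both Jmjd2c knockdown arrays lay below all Jmjd2b knockdown arrays in 26 members, where 13.7% of all genes did so, and above them in 3, where 13.4% did. Thus 29 members did not overlap, against 27.1% of all genes. Of all genes 0.693% passed in either direction. Within the third set of arrays the median was -0.25. The count of lower members went to 12 without Jmjd2c knockdown array 2, to 1 without Jmjd2b knockdown array 2, to 2 without control array 3, to 3 without any other 1 of the Jmjd2b knockdown or control arrays, and to 1 with the sets as a block, where Anxa1 alone passed. Of all genes, 0.022% were lower with the sets as a block, 0.011% without Jmjd2b knockdown array 2 and 0.137% without control array 3. Zyx (95% interval -1.73 to -0.45), Cald1 (95% interval -1.57 to -0.53) and Vcl (95% interval -0.53 to 0.08) were among the members whose difference between the knockdowns did not pass.

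The 2 Jmjd2c knockdown arrays did not hold the same level in several members. Array 2, which kept more Kdm4c, was the higher in 29 of 44 members, and in 52.2% of all genes. The arrays differed by at least 0.5 on the log2 scale in 11 of 44 members and in 21.6% of all genes, shares that lie close together. The widest gaps were those of Lima1, at -1.38 (array 2 minus array 1), and Itgav, at 1.09. Anxa2, Zyx, Cald1 and S100a10 differed by 0.97, 0.92, 0.88 and 0.83.

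**Figure D5:**
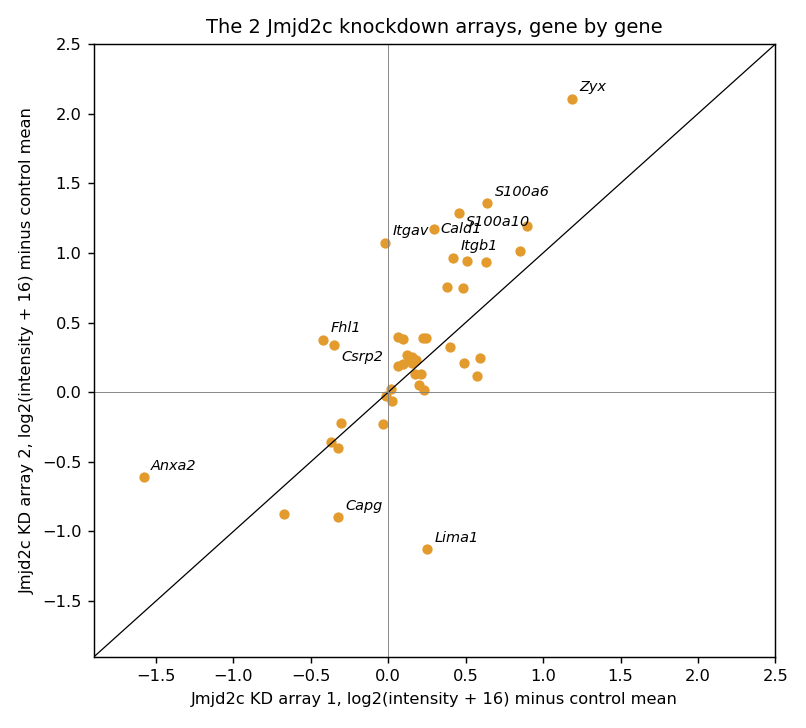
Each point is 1 of the 44 members, with log2(intensity + 16) minus the control mean in Jmjd2c knockdown array 1 (horizontal axis) and array 2 (vertical axis), and the line marks equal values. Members at least 0.5 apart are named: Lima1 lies far below the line, and Itgav, Zyx, Cald1 and Anxa2 lie above it.

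Other genes of the actin and adhesion machinery, from 4 lists of genes that are not members, were counted in the same fit. Their counts stand beside 11.6% of all genes that rose and 12.9% that fell in the Jmjd2b knockdown, with a median of -0.03, and 4.31% and 5.28% in the Jmjd2c knockdown, with a median of -0.02. Of 12 measured genes of the Arp2/3 complex, which starts branched filaments, and of its WAVE regulators, 4 rose and 0 fell in the Jmjd2b knockdown (limma; the median was 0.15), and 2 rose and 0 fell in the Jmjd2c knockdown. The subunit Arpc5 changed by 0.93 ± 0.10 (SE; adjusted p = 0.000267) in the Jmjd2b and 0.57 ± 0.11 (SE; adjusted p = 0.0148) in the Jmjd2c knockdown, and Arpc4 by 0.69 ± 0.09 (SE; adjusted p = 0.000645) in the Jmjd2b and 0.596 ± 0.10 (SE; adjusted p = 0.00856) in the Jmjd2c knockdown.

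Of 25 focal adhesion kinases, adaptors and other integrin subunits, 8 rose and 2 fell in the Jmjd2b knockdown and 3 rose and 0 fell in the Jmjd2c knockdown. Tgfb1i1, which encodes the paxillin relative Hic-5, had 215, 169 and 343 in the Jmjd2b knockdown, 64.3 and 103 in the Jmjd2c knockdown and 19.3, 23.99 and 16.4 in the control, differences of 2.798 ± 0.24 (SE; adjusted p = 9.07e-05) in the Jmjd2b and 1.45 ± 0.27 (SE; adjusted p = 0.0121) in the Jmjd2c knockdown. Itgb8, a beta subunit that pairs with alpha V, had 72.8, 92.3 and 86.3 in the Jmjd2b knockdown, 23.4 and 37.6 in the Jmjd2c knockdown and 11.3, 16.3 and 6 in the control, dim in the control, and rose by 1.89 ± 0.18 (SE; adjusted p = 0.000143) in the Jmjd2b and 0.77 ± 0.20 (SE; adjusted p = 0.0421) in the Jmjd2c knockdown. Itga9 rose in the Jmjd2c knockdown, at 0.71 ± 0.15 (SE; adjusted p = 0.0208), and had -0.14 ± 0.14 (SE; adjusted p = 0.509) in the Jmjd2b knockdown. Of 30 other genes that bind actin or form the cortex, 11 rose and 2 fell in the Jmjd2b knockdown and 5 rose and 3 fell in the Jmjd2c knockdown. Tpm1, a tropomyosin, had 1977, 2278 and 3574 in the Jmjd2b knockdown, 1044 and 1192 in the Jmjd2c knockdown and 231, 354 and 348 in the control, the groups in 3 separate steps, and rose by 2.98 ± 0.22 (SE; adjusted p = 5.69e-05) in the Jmjd2b and 1.82 ± 0.25 (SE; adjusted p = 0.00423) in the Jmjd2c knockdown. Marcks, which binds actin at the membrane, rose by 1.02 ± 0.08 (SE; adjusted p = 7.32e-05) in the Jmjd2b and 0.62 ± 0.09 (SE; adjusted p = 0.00552) in the Jmjd2c knockdown.

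The factors that read actin state and tension into transcription were the last list. Of 10 genes for SRF, its cofactors and the TEAD and YAP partners, 5 rose and 1 fell in the Jmjd2b knockdown, with a median of 0.56, and 1 rose and 1 fell in the Jmjd2c knockdown. Yap1 rose by 0.61 ± 0.10 (SE; adjusted p = 0.00237) in the Jmjd2b and 0.51 ± 0.11 (SE; adjusted p = 0.0241) in the Jmjd2c knockdown, Tead3 rose by 1.1997 ± 0.16 (SE; adjusted p = 0.000684) in the Jmjd2b knockdown, and Wwtr1, which encodes the YAP relative TAZ, fell in the Jmjd2c knockdown, at -0.53 ± 0.13 (SE; adjusted p = 0.0293). Srf itself, named after its value was seen, had 619, 661 and 800.0 in the Jmjd2b knockdown, 628 and 309 in the Jmjd2c knockdown and 222, 365 and 330.1 in the control. Its difference was 1.16 ± 0.26 (SE; adjusted p = 0.00873) in the Jmjd2b and 0.54 ± 0.29 (SE; adjusted p = 0.296) in the Jmjd2c knockdown.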

How the data were processed

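RNA of 8 samples was measured on arrays from biotinylated cRNA, per the labels' protocols. The deposited values are linear intensities per probe set as the authors left them, with array medians between 44.7 and 46.6. Neither the summarisation nor the scaling method is stated in the labels. Of 45101 probe sets, 34945 carried 1 symbol, 932 several and 9160 none, and 64 were array controls. The platform annotation was checked against RefSeq, which matched 34741 probe sets and changed no symbol.

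The probe set with the highest mean stood for each of 18193 genes. Intensities were taken as log2(intensity + 16) with no further normalization or filter and fitted over all genes and all 3 groups with limma 3.58.1 (eBayes with trend) in R 4.3.3. A fold change on this scale understates the change of dim genes. Tests were two-sided, and the Benjamini-Hochberg adjustment ran over all genes; an adjusted p under 0.05 passed. Tables and figures used Python 3.11.15, pandas 2.3.3 and matplotlib 3.10.9. The fit was tested on simulated data.

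The members and lists were chosen with earlier results of these data known. All members were to be described, with array values for those that passed with the largest changes and those whose call differed between the knockdowns, and from each list up to 2 genes with the smallest p in each comparison with the control. The result of 1 further list is not reported here. Replicate numbers were checked for pairing: deviations of same-numbered control and Jmjd2b knockdown arrays correlated at 0.176, 0.111 and 0.116 over genes, against -0.127 to 0.0167 for other pairs of these groups. By the rule that each of 3 pairs exceed 0.1, these numbers were taken to pair the samples, which the labels do not state. The correlations are small, and deviations cancel within a group, so the pairs are not independent. Jmjd2b knockdown array 3 and Jmjd2c knockdown array 1, which differ in number, correlated at 0.167. The 2 Jmjd2c knockdown arrays correlated with their numbered controls at 0.0408 and 0.0633 and are not taken as paired. Alternatives were 18 planned settings (pseudocount, filter, quantile normalization, probe set choice, blocks, groups in the fit, trend and leaving out each array) and 1 added after seeing the data, a block of the 3 sets of arrays that share exact values.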

Additional observations from a re-analysis of the deposited data

How the results depend on the processing

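Some differences turned their sign. Without the probe sets that can detect several transcripts, the Jmjd2b knockdown difference of Tpm3 was -0.029 and of Anxa2 0.22, and the Jmjd2c knockdown difference of Anxa2 was 0.27 and of Lmna 0.42, where dimmer probe sets stand in. The difference of Itgav, Jmjd2c minus Jmjd2b knockdown, was -0.53 without Jmjd2c knockdown array 2 and 0.56 without array 1. In the Jmjd2b knockdown the members that rose numbered between 21 and 31 in every alternative. Of all genes measured in each alternative, 7.38% to 19.9% rose. The 21 came from the setting without the probe sets that can detect several transcripts, which measured only 36 members. Csrp2, which fell in the main fit, was not measured there. Brighter genes alone held 41 members, and the other alternatives held 44. The 4 that fell became 1 with the mean of probe sets, 0 without those probe sets, 2 with the replicate block that pairs the arrays and 0 with the sets of arrays as a block, and 0 to 5 when single arrays were left out. Of all genes, 11.5% fell with the mean of probe sets and 11.6% without those probe sets. The median of the members was 0.38 with the mean of probe sets and 0.40 to 0.50 without single arrays. In the Jmjd2c knockdown the 7 that rose became 11 among brighter genes, 11 after quantile normalization, 4 with only the 2 groups in the fit, 3 with the array type as a block, 0 with the sets as a block, and 2 to 15 without single arrays. The replicate block gave 10, where 3.79% of all genes rose. The share of all genes that rose moved as well. It was 9.45% among brighter genes, 4.96% after quantile normalization, 2% with the 2 groups, 2.25% with the array type and 0.0275% with the sets as a block. The 2 that fell became 1 with the mean of probe sets, 0 without the named probe sets, 1 with 2 groups, 0 with the sets as a block and 0 to 4 without single arrays, and the median was 0.094 with the sets as a block. Between the knockdowns, the 6 lower members became 1 with 2 groups, 1 with the array type as a block, 3 without the trend, 1 with the sets as a block and 1 to 12 without single arrays, and the 0 higher ones (limma; 3 at an unadjusted p under 0.05) became 0 to 2. Their median was -0.22 with the mean of probe sets, -0.22 without the named probe sets, and -0.35 to -0.17 without single arrays. Between the knockdowns, 0.011% of all genes were lower with 2 groups and 0.033% with the array type as a block. The share was 0.286% without the trend and 0.022% with the sets as a block. The cause of these shifts was not tested. In the Jmjd2b knockdown the replicate block lost Actg1, Pxn and Lmna and gained Fhl1, and it changed no other member's call there. The Jmjd2c knockdown arrays share only a number with the others. With the block, their comparison with the control lost Tes and gained Pfn1, Myl12a, Itgb1 and S100a6. Jmjd2c minus Jmjd2b knockdown lost Tpm4, Tes and Fhl2 and gained Itgb5 and S100a6, leaving 5 lower members. The 2 Jmjd2c knockdown arrays limit every value of that group, and dim probe sets, such as those of Fhl3 and Itga5, carry little signal over background.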
